A study of Homo sapiens with 16 samples.

Results

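The genes described here make, lengthen, activate, store and burn fatty acids. They were chosen by name as the main enzymes of these steps, 34 genes in all, and all 34 were found among the 60642 gene symbols of the expression table. They fall into 5 roles, with 6 genes of synthesis, 7 of elongation and desaturation, 4 of activation, 8 of glycerolipid assembly and storage and 9 of oxidation. Of the 34, 31 passed the filter on low values, which was a TPM (the share of all transcripts in a library, corrected for transcript length) of at least 1 in at least 2 libraries, and could be tested. ELOVL2, ACSL5 and PLIN2 did not pass and are given by their levels alone.

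The samples were LNCaP cells, an androgen-responsive line from a human prostate cancer, so they stand for 1 line in culture and not for tumours. All groups were grown for 72 h with 5% fetal bovine serum and then for 48 h with 5% charcoal-stripped serum, which is low in steroids. They were then treated for 48 h. VEH received solvents only and DHT received 10 nM of the androgen dihydrotestosterone. BIC.VEH, ENZ.VEH and APA.VEH received 10 µM of bicalutamide, enzalutamide or apalutamide, which are antagonists of the androgen receptor, and BIC.DHT, ENZ.DHT and APA.DHT received the same antagonist together with 10 nM DHT. Each of the 8 groups held 2 biological replicates, so that 16 libraries of polyadenylated RNA were compared.

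As background, fatty acids are built in the cytosol from citrate. ACLY turns citrate into acetyl-CoA, ACACA and ACACB make malonyl-CoA from it, and FASN joins these units into palmitate, which SCD desaturates and the ELOVL and FADS enzymes lengthen and desaturate further. Before a fatty acid can be stored or burned it is joined to CoA by an ACSL enzyme, after which it enters triglyceride through GPAM, AGPAT, LPIN1 and DGAT enzymes or enters mitochondria through CPT1A and CPT2 for beta-oxidation. Prostate cancer cells are known for active lipid synthesis, part of which responds to androgen.

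The libraries carried the markers of luminal prostate cells. KRT8 and KRT18, keratins of luminal epithelium, were at 546 to 976 TPM and 452 to 908 TPM, while KRT5 (basal keratin), PTPRC (leukocytes) and PECAM1 (endothelium) did not exceed 0.16 TPM in any library. KRT14, another basal keratin, was at 0.03 and 0.05 TPM in VEH and at 1.68 and 1.59 TPM with DHT. It was called higher with DHT (limma adjusted p 0.0039). VIM and COL1A1, genes of mesenchymal cells, were at 8.12 to 22.25 TPM and 11.44 to 32.55 TPM, both lowest with DHT. KLK3, TMPRSS2 and FKBP5, which are known to respond to androgen, were higher with DHT by 6.42, 3.15 and 2.68 on the log2 scale. Of 8 listed markers of LNCaP cells, 5 had positive log2 differences with DHT and 3 negative ones. Those 3 were FOLH1 (-0.58), STEAP2 (-0.58) and HOXB13 (-0.49). FOLH1 was called lower (limma adjusted p 0.022), and HOXB13 only with the replicate number fitted as a block (adjusted p 0.026). Replicates correlated at 0.964 to 0.982 across genes, and the lowest value was that of ENZ.DHT and of APA.DHT, whose replicate 1 libraries stood apart from their replicate 2 libraries. The summed level of 10 genes of dividing cells, among them MKI67 and TOP2A, was 142.9 and 339.2 TPM in VEH (replicates 1 and 2), 388.5 and 760.7 TPM with DHT, and 97.07 to 497 TPM elsewhere. All 10 had a positive log2 difference with DHT, 0 of them called by limma and 9 called once the replicate number was fitted as a block, and replicate 1 was the lower library in every group. Their part in the results below was not tested.

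The promoters of 4 members are printed as examples from genes that rose (ELOVL5, SCD and ACSL3) or fell (HADHB) with DHT. Each window runs from 250 bases before to 50 bases after a RefSeq gene start in GRCh38.p14, and capitals mark the letters of a CCAAT box, which read ATTGG when the box lies on the other strand, and of an E-box, CACGTG, in the ELOVL5 window. The windows are chr6:53348901-53349200 on the minus strand for ELOVL5, chr10:100346983-100347282 on the plus strand for SCD, chr2:222860786-222861085 on the plus strand for ACSL3 and chr2:26244689-26244988 on the plus strand for HADHB.
ELOVL5: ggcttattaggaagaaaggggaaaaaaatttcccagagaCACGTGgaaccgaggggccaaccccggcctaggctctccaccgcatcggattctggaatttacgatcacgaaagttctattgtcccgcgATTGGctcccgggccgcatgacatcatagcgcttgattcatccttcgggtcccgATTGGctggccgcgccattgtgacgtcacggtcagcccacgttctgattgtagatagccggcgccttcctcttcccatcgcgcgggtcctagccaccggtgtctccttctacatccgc
SCD: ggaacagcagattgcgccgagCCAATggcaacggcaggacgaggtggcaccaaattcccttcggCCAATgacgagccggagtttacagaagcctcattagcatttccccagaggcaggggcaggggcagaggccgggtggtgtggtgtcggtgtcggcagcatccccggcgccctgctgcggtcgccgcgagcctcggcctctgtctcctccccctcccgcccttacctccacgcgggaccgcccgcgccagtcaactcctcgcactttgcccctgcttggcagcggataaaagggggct
ACSL3: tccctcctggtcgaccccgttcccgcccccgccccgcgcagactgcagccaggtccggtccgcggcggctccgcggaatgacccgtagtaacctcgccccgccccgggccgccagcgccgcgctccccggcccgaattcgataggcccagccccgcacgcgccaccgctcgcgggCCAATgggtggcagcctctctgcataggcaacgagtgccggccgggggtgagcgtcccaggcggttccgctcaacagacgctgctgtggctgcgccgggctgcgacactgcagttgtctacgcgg
HADHB: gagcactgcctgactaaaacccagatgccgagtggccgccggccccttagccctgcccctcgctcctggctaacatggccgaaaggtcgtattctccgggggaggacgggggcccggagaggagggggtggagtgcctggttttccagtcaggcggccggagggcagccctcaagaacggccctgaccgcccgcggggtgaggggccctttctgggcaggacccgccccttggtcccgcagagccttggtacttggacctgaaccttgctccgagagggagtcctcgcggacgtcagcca

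Windows were found for 30 of the 34 members, 46 windows in all. Both strands were searched for 4 short motifs. CCAAT was in 32.6% of the 46 windows and in 34.6% of the 35116 windows of all genes. Some genes had several windows, and by gene CCAAT was found in 13 of the 30. The 13 included genes called higher with DHT, such as ELOVL5 and SCD, and genes not called, namely ACSS2, ACACB, GPAM and AGPAT3 among others. ELOVL7, LPIN1, ACADM and ECI2, also called higher, had no CCAAT in their windows. CACGTG was in 4.35% of the members' windows, those of ELOVL5 and PLIN2, against 7.26%. AGAACA, the half-site letters of the androgen receptor, was in 4.35%, those of ACSL1 and ACSL5, against 14.8%. TCACNCCAC, the core letters of a sterol element, was in 4.35%, those of ACSL1 and PNPLA2, against 1.13%. The HADHB window holds none of the 4 motifs and overlaps that of HADHA, which runs the other way, by 194 bases. The starts of the pair lie 307 bases apart. These matches describe letters in short windows and were not related to the expression values by any test.

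With DHT, the genes that make, desaturate, lengthen and activate fatty acids held 8 of the 11 members called higher, 1 of 7 tested storage genes was called, and oxidation genes were called in both directions. Of the 31 tested members, 14 were called against VEH at a limma adjusted p below 0.05 (Benjamini-Hochberg over all 16636 genes tested), 11 of them higher and 3 lower. Over all genes, 10.3% were called, 3.63% higher and 6.64% lower, so the members' share of 45.2% lay above the background and 11 of the 14 calls were higher. The members were chosen with earlier results of these data known, so this excess is a description and no independent support. The median log2 fold change was 0.50 over the members and -0.10 over all genes. Dividing each library by a median-ratio factor set the median of all genes to 0, left 12 members higher and 3 lower, and moved the split over all genes to 996 higher and 892 lower. In bulk RNA, fewer cells expressing a gene and less RNA per cell cannot be told apart, which holds for every value here.

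**Figure D1:**
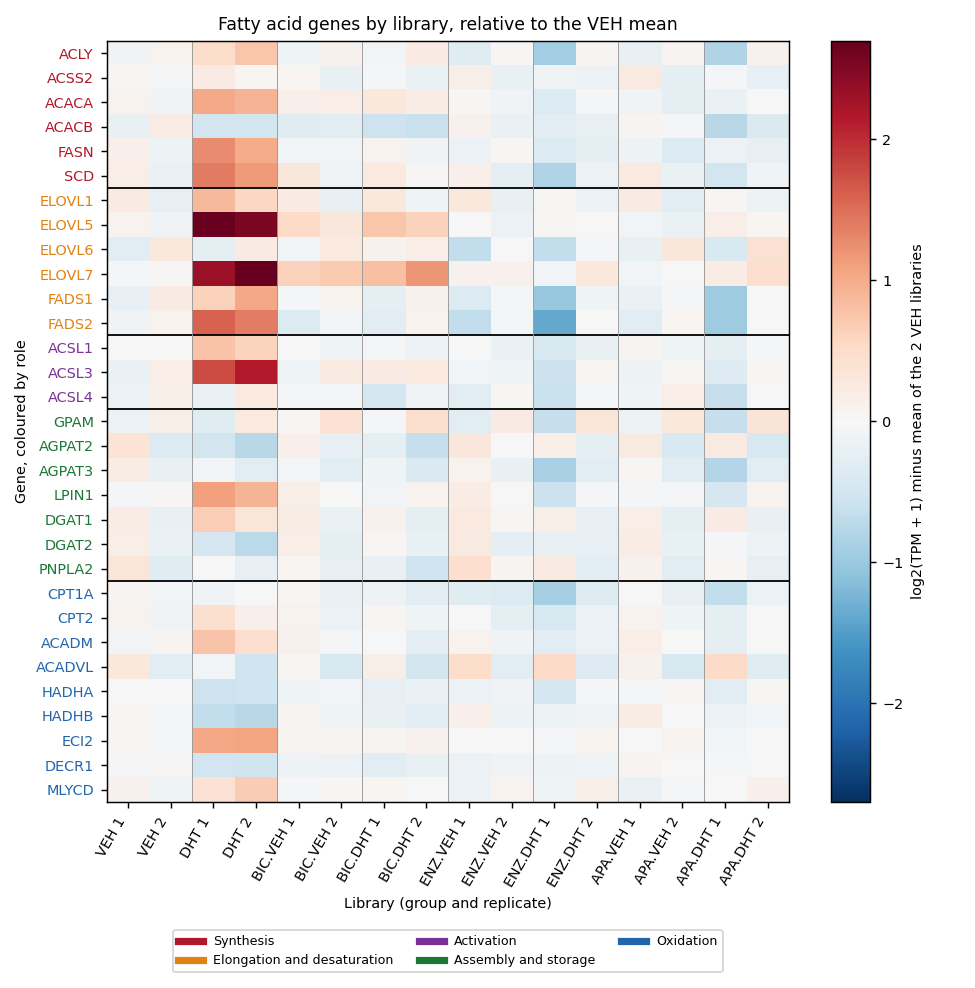
Level of each tested member (rows, coloured by role) in each of the 16 libraries (columns), as log2(TPM + 1) minus the mean of the 2 VEH libraries, with red above and blue below that mean. The red cells concentrate in the 2 DHT columns, most deeply for ELOVL5 and ELOVL7, whose log2 fold changes were 2.61 and 2.66, and the blue cells of ENZ.DHT 1 and APA.DHT 1 mark the replicates that stood apart.

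The DHT libraries stood apart from all the others for most members. Both DHT libraries lay above all 14 other libraries for 17 of the 31 tested members, against 10.5% of all tested genes. They lay below all 14 others for 4 members, namely DGAT2, HADHA, HADHB and DECR1, against 13.9% of all tested genes, a share close to the members' own. The 17 that lay above were ACLY, ACACA, FASN and SCD in synthesis, ELOVL1, ELOVL5, ELOVL7, FADS1 and FADS2 in elongation and desaturation, ACSL1 and ACSL3 in activation, LPIN1 and DGAT1 in assembly, and CPT2, ACADM, ECI2 and MLYCD in oxidation.

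Synthesis genes were 3 of 6 called, all higher, with a median log2 fold change of 0.80. FASN, the fatty acid synthase (chr17:82078338-82098236), was at 301 and 246 TPM in VEH and at 659 and 545 TPM with DHT. The other 6 groups lay between 210.19 and 289 TPM, so no library without DHT, or with DHT and an antagonist, came near the DHT pair. Its log2 fold change with DHT was 1.14 (limma adjusted p 0.00081, SE 0.15). ACACA, the cytosolic acetyl-CoA carboxylase that commits carbon to fatty acids (chr17:37084992-37406836), was at 144 and 125 TPM in VEH and at 275 and 253 TPM with DHT. Its log2 fold change was 0.97 (limma adjusted p 0.0012, SE 0.13), and the DHT pair did not overlap any other group.

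SCD, the desaturase that makes oleate (chr10:100347233-100364826), had the highest level with DHT among synthesis genes after FASN, at 623 and 519 TPM against 265 and 206 TPM in VEH. Its log2 fold change was 1.28 (limma adjusted p 0.01, SE 0.26). This call was lost without VEH replicate 2 or without DHT replicate 1. ACLY, the citrate lyase, stood at 109 and 124 TPM in VEH and at 166 and 196 TPM with DHT, above all other libraries but not called (limma adjusted p 0.27), and called with the replicate number as a block (adjusted p 0.04). ACSS2, which makes acetyl-CoA from acetate, stayed between 38.91 and 55.33 TPM in all 16 libraries and its groups overlapped.

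ACACB, the mitochondrial counterpart of ACACA whose product restrains entry of fatty acids into mitochondria, differed in the other direction. It was at 7.43 and 10.04 TPM in VEH and at 5.82 TPM in both DHT libraries, a log2 difference of -0.50 that was not called (limma adjusted p 0.1) and that was called with the block (adjusted p 0.042). As a share of the summed TPM of ACACA and ACACB it was 4.91% and 7.43% in VEH and 2.07% and 2.25% with DHT. The groups did not overlap on this share, which was not tested.

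Elongation and desaturation held the largest changes. Of its 6 tested genes 3 were called, all higher, and the median log2 fold change was 1.16. ELOVL5, which elongates polyunsaturated fatty acids (chr6:53267404-53348950), was at 115 and 101 TPM in VEH and at 690.3 and 636 TPM with DHT. No other library exceeded 183 TPM. The log2 fold change was 2.61 (limma adjusted p 1.8e-06, SE 0.12), a 6.09-fold ratio of the values plus 1. ELOVL7, which elongates saturated very long chains (chr5:60751791-60844269), rose from 9.82 and 10.43 TPM to 54.99 and 87.79 TPM. Its replicates with DHT differed more than those of ELOVL5, yet both lay above the 24.33 TPM of the next library. The log2 fold change was 2.66 (limma adjusted p 3.3e-05, SE 0.21).

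FADS2, the delta-6 desaturase that starts the polyunsaturated pathway (chr11:61816203-61867354), was at 273 and 308 TPM in VEH and at 872 and 761 TPM with DHT. It was the most abundant member of this role in both DHT libraries. The log2 fold change was 1.49 (limma adjusted p 0.043, SE 0.41), and the call was lost without any 1 of the 4 libraries compared. Its replicates differed most in ENZ.DHT and APA.DHT, where replicate 1 held 110.24 and 149 TPM and replicate 2 held 287 and 291 TPM. FADS1, the delta-5 desaturase that overlaps the first part of FADS2 on the opposite strand, was at 26.97 and 36.7 TPM in VEH and at 49.13 and 65.48 TPM with DHT. It was above all other libraries with DHT and was called with the block only (adjusted p 0.0083, against 0.15).

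ELOVL1, which elongates long saturated chains, showed the same order with a smaller difference, at 173 and 126 TPM in VEH and at 270.3 and 217 TPM with DHT. It was called with the block only (adjusted p 0.00051, against 0.099), and replicate 1 was the higher library in every group. ELOVL6, which extends palmitate, did not follow. It was at 16.96 and 25.5 TPM in VEH and at 17.24 and 24.27 TPM with DHT, with a 95% interval of the log2 difference from -0.78 to 0.73. ELOVL2 was at or below 0.28 TPM in all libraries. ELOVL5 made up 36.6% and 38.5% of the summed TPM of the 5 ELOVL genes in VEH and 66.8% and 65.9% with DHT.

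**Figure D2:**
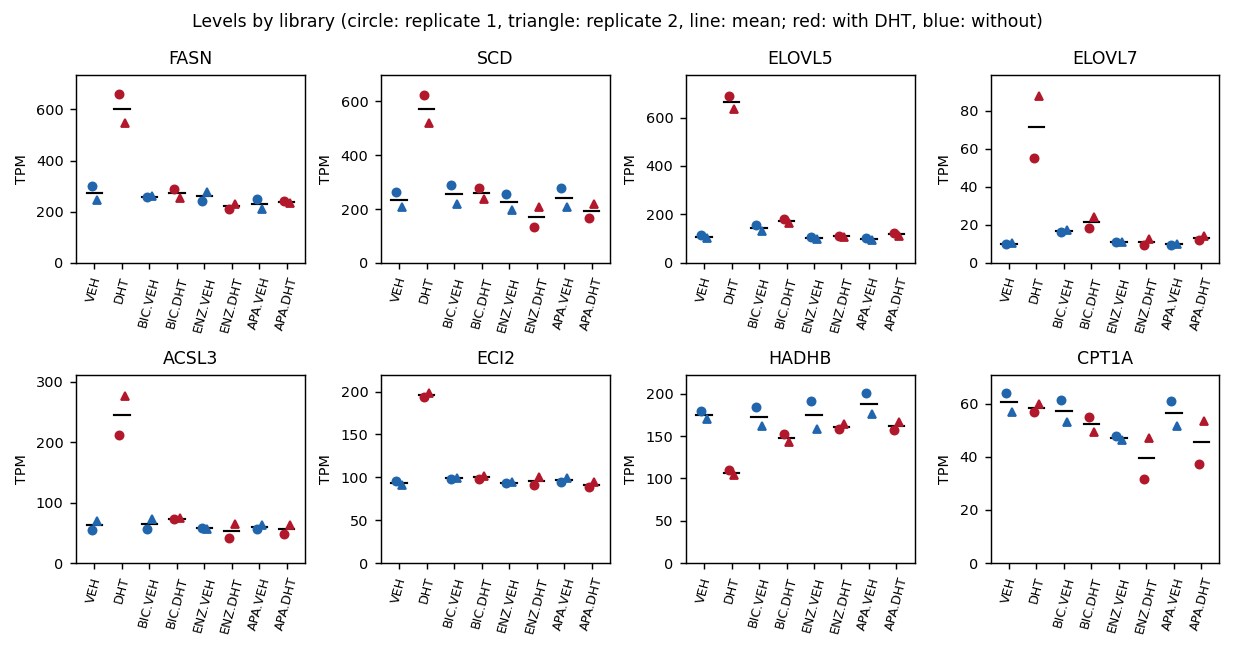
TPM of 8 members in each library, by group on the horizontal axis, with circles for replicate 1, triangles for replicate 2, a line at the group mean, red for groups with DHT and blue for groups without. FASN, SCD, ELOVL5, ELOVL7, ACSL3 and ECI2 were highest in the DHT pair, HADHB was lowest there at 109.81 and 104 TPM, and CPT1A showed no such separation.

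Among the activating enzymes 2 of the 3 tested were called, both higher. ACSL3, which sits on lipid droplets and the endoplasmic reticulum (chr2:222861036-222944639), was at 54.79 and 69.73 TPM in VEH and at 212 and 277 TPM with DHT, with no other library above 74.86 TPM. The log2 fold change was 1.95 (limma adjusted p 0.00048, SE 0.23). ACSL1, the main long-chain enzyme of many tissues (chr4:184755595-184826594), rose from 106 and 103 TPM to 180.01 and 158 TPM, a log2 fold change of 0.69 (limma adjusted p 0.0084, SE 0.13), and lost its call without VEH replicate 1, VEH replicate 2 or DHT replicate 1. ACSL4, which prefers arachidonate, stayed between 1.01 and 2.7 TPM and overlapped between groups. ACSL5 reached 1 and 0.93 TPM with DHT and no more than 0.94 TPM elsewhere. ACSL3 made up 33.6% and 39.7% of the summed TPM of the 4 ACSL genes in VEH and 53.7% and 63.1% with DHT, and between 33.4% and 43.7% in the other groups.

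Among assembly and storage genes 1 of 7 tested was called, or 14.3% against the 10.3% of all genes. With the block 4 of the 7 were called, 2 higher and 2 lower, against 27.4% of all genes. LPIN1, the phosphatidate phosphatase that makes diacylglycerol (chr2:11677544-11827409), was at 21.3 and 22.22 TPM in VEH and at 47.9 and 42.26 TPM with DHT, where it lay above all other libraries. Its log2 fold change was 1.02 (limma adjusted p 0.0094, SE 0.20), and the call was lost without VEH replicate 1, VEH replicate 2 or DHT replicate 1. The median over the role was -0.11, close to the -0.10 of all genes. PLIN2, which coats lipid droplets, was at 0.27 and 0.22 TPM in VEH and at 0.47 and 0.29 TPM with DHT and did not exceed 0.47 TPM in any library, so it was not tested.

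DGAT1 and DGAT2, unrelated enzymes that perform the last step of triglyceride synthesis, exchanged places. DGAT1 was at 41.2 and 30.57 TPM in VEH and at 56.77 and 45.05 TPM with DHT, and DGAT2 was at 55.59 and 43.04 TPM in VEH and at 35.33 and 29.23 TPM with DHT. Within each library DGAT1 was 61.6% and 60.6% of their sum with DHT and between 41% and 48.6% in the 14 other libraries. Neither log2 difference was called (0.50 and -0.59, limma adjusted p 0.22 and 0.11), and both were called with the block (adjusted p 0.0012 and 0.0039). AGPAT2, an acyltransferase of phosphatidate synthesis, was at 55.14 and 32.69 TPM in VEH and at 29.94 and 25.01 TPM with DHT and was called lower with the block only (adjusted p 0.0054, against 0.25). GPAM, AGPAT3 and PNPLA2 (the triglyceride lipase) had overlapping groups.

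**Figure D3:**
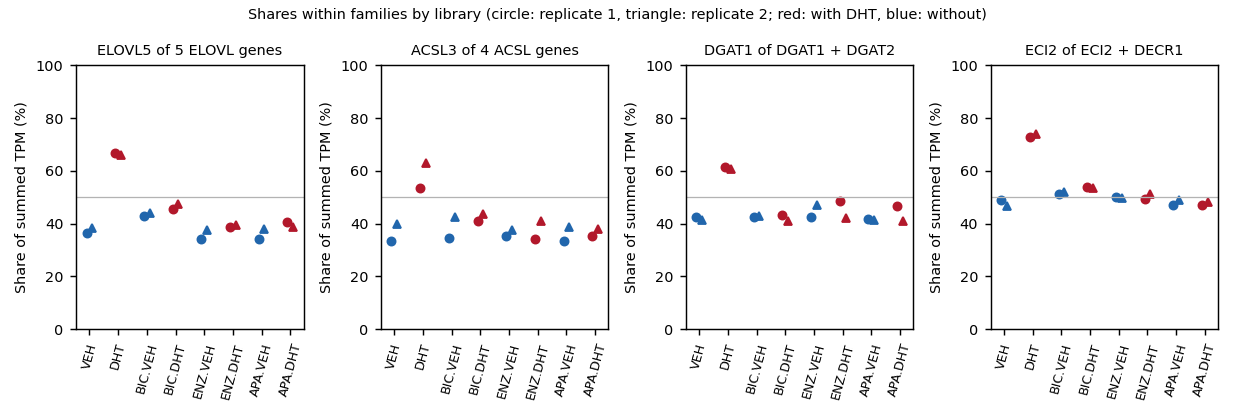
Share of the summed TPM (%) taken by ELOVL5 among 5 ELOVL genes, ACSL3 among 4 ACSL genes, DGAT1 against DGAT2 and ECI2 against DECR1, by group, with circles for replicate 1, triangles for replicate 2, red with DHT, blue without and a grey line at 50%. The DHT pair is above the line in all 4 panels and above every other library, as for DGAT1 at 61.6% and 60.6%. The shares are descriptive and were not tested.

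Oxidation genes were called in both directions, with 2 of 9 higher and 3 lower and a median of -0.05, against 10.3% of all genes called. With the block 3 were higher and 3 lower, against 27.4% of all genes. ECI2, an enoyl-CoA isomerase that handles unsaturated chains (chr6:4115706-4135575), rose from 96.28 and 91.6 TPM in VEH to 193 and 198 TPM with DHT, and the other 12 libraries lay between 89.04 and 101.96 TPM. The log2 fold change was 1.05 (limma adjusted p 9.3e-05, SE 0.10). ACADM, the medium-chain acyl-CoA dehydrogenase (chr1:75724709-75763679), was at 66.04 and 72.33 TPM in VEH and at 119 and 94.88 TPM with DHT, a log2 fold change of 0.61 (limma adjusted p 0.029, SE 0.16) that lost its call without VEH replicate 1, VEH replicate 2 or DHT replicate 1.

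HADHA and HADHB encode the alpha and beta subunits of the mitochondrial trifunctional protein and start 307 bases apart on opposite strands of chromosome 2. Both fell. HADHB (chr2:26244939-26290465) went from 179 and 170.25 TPM in VEH to 109.81 and 104 TPM with DHT, with all other libraries at 143 TPM or more, and its log2 fold change was -0.71 (limma adjusted p 0.0048, SE 0.12). HADHA (chr2:26190635-26244632) went from 167 and 169.72 TPM to 115 and 116 TPM, a log2 fold change of -0.54 (limma adjusted p 0.036, SE 0.14). Its call was lost without any 1 of the 4 libraries compared, while its log2 fold change ran from -0.551 to -0.528 in those fits. DECR1, the dienoyl-CoA reductase that acts with ECI2 on unsaturated chains, went from 101 and 105 TPM to 71.56 and 70.05 TPM and was called lower (limma adjusted p 0.004). ECI2 was 48.9% and 46.6% of the sum of ECI2 and DECR1 in VEH and 73% and 73.9% with DHT.

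At the entry step of oxidation CPT1A did not separate, while both DHT libraries of CPT2 lay above all others. CPT1A, the transferase that admits fatty acids to mitochondria (chr11:68754620-68844277), was at 63.95 and 56.89 TPM in VEH and at 56.8 and 59.83 TPM with DHT, overlapping, with a log2 difference of -0.05 (limma adjusted p 0.92, SE 0.20) and a 95% interval from -0.49 to 0.39. The sign of that difference turned under median-ratio scaling. CPT2, its partner at the inner membrane, was at 52.59 and 45.82 TPM in VEH and at 66.49 and 53.82 TPM with DHT and was not called. MLYCD, which removes malonyl-CoA, was at 6.65 and 5.55 TPM in VEH and at 8.3 and 10.33 TPM with DHT and was called with the block only (adjusted p 0.015, against 0.066). ACADVL, the very-long-chain dehydrogenase, was the most abundant member in VEH, at 1334 and 911 TPM, and replicate 1 was above replicate 2 in all 8 groups, while within each replicate number DHT was below VEH, at 1053 and 760 TPM. Its log2 difference of -0.30 was not called (limma adjusted p 0.7, and 0.074 with the block).

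**Figure D4:**
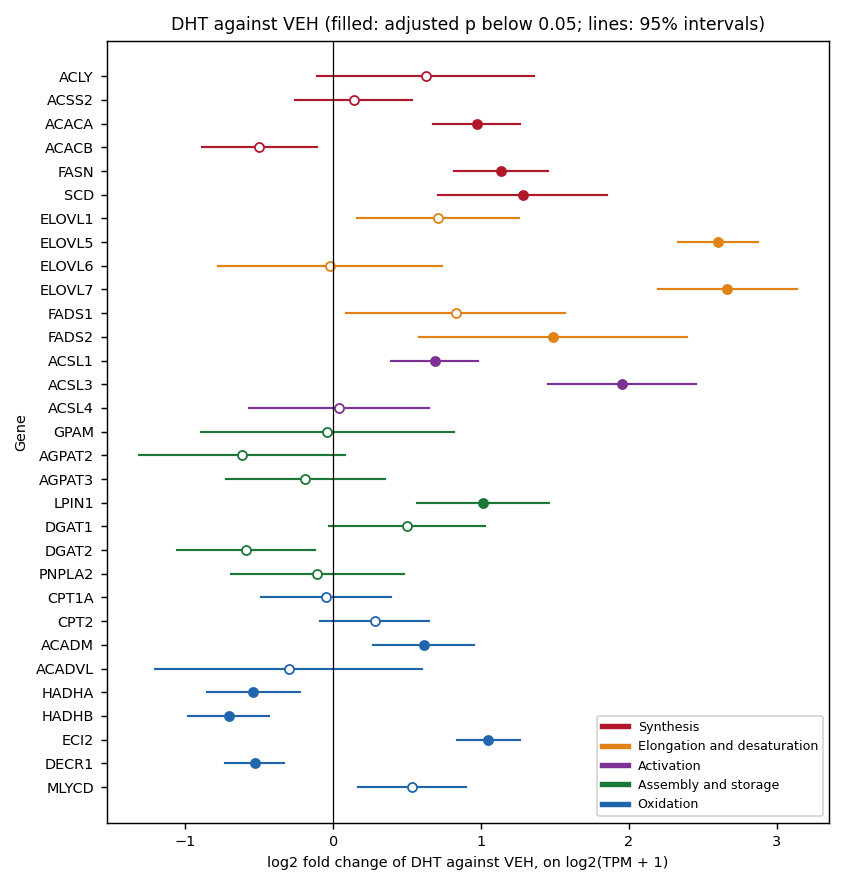
Log2 fold change of DHT against VEH on the log2(TPM + 1) scale for the 31 tested members, coloured by role, with 95% intervals as lines and filled points where the limma adjusted p was below 0.05. ELOVL5 and ELOVL7 lie farthest to the right at 2.61 and 2.66, and the filled points left of 0 are HADHA, HADHB and DECR1, all in oxidation.

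How these calls changed without single libraries was read from fits that left 1 out. Each of the 4 fits kept a lone library in 1 group, and each also called fewer of all genes than the full fit. The count of 14 fell to 9 without VEH replicate 1, to 8 without VEH replicate 2 and to 8 without DHT replicate 1, and was 12 without DHT replicate 2. ACACA, FASN, ELOVL5, ELOVL7, ACSL3, HADHB, ECI2 and DECR1 were called in all 4 of these fits. With the replicate number as a block the count was 22, 16 higher and 6 lower, against 27.4% of all genes, and all 14 were among them. When only the VEH and DHT libraries were fitted, 5 members were called, which were ELOVL5, ELOVL7, FADS2, ACSL3 and ECI2. Over all genes that fit called 91 higher and 82 lower.

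The next comparisons set each antagonist with DHT against DHT alone, and all 3 share the DHT libraries. FASN, SCD, ELOVL5, ELOVL7, ACSL3 and ECI2 were among the members called lower with each antagonist, while HADHB and DECR1 were called higher with ENZ and with APA. All 10 genes of dividing cells also had negative log2 differences with each antagonist, 0 of them called, and with the block 1, 10 and 10 were called with BIC, ENZ and APA. Their part in the members' differences was not tested. With BIC, 10 of 31 members were called, all lower, against 3.13% of all genes (1.45% higher and 1.68% lower). With ENZ, 14 were called, 2 higher and 12 lower, against 9.65% of all genes (4.74% higher and 4.91% lower). With APA, 14 were called, 2 higher and 12 lower, against 8.36% of all genes (4.25% higher and 4.11% lower). With the block the counts were 18, 23 and 22, against 13.3%, 29.2% and 27.3% of all genes. The median log2 fold change of the members was -0.50 with BIC, -0.58 with ENZ and -0.46 with APA, and that of all genes 0.003, -0.014 and 0.

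In synthesis, FASN was at 289 and 254 TPM in BIC.DHT, at 212 and 229.55 TPM in ENZ.DHT and at 243 and 234 TPM in APA.DHT, all below the DHT pair, and none was above the higher of the VEH libraries. Its log2 fold changes against DHT were -1.14 (limma adjusted p 0.0021, SE 0.15), -1.44 (limma adjusted p 0.00021, SE 0.15) and -1.32 (limma adjusted p 0.00034, SE 0.15). ACACA had log2 fold changes of -0.73, -1.18 and -1.07 with BIC, ENZ and APA, all called. SCD had -1.14, -1.77 and -1.57, all called. Its level was 279.75 and 238 TPM in BIC.DHT, 132 and 208 TPM in ENZ.DHT and 166 and 218 TPM in APA.DHT, and the replicate 1 values of the last 2 groups were the lowest of the 16 libraries. With BIC the calls of ACACA and SCD were lost without any 1 of the 4 libraries compared.

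In elongation, ELOVL5 was at 183 and 166 TPM in BIC.DHT, at 111 and 108 TPM in ENZ.DHT and at 122 and 112 TPM in APA.DHT. The BIC.DHT pair was above the VEH pair, and the ENZ.DHT pair lay between the VEH libraries. The log2 fold changes against DHT were -1.92 (limma adjusted p 3.6e-05, SE 0.12), -2.59 (limma adjusted p 2.9e-06, SE 0.12) and -2.49 (limma adjusted p 3.2e-06, SE 0.12). ELOVL7 was at 18.56 and 24.33 TPM in BIC.DHT, at 9.51 and 12.49 TPM in ENZ.DHT and at 11.79 and 14.2 TPM in APA.DHT, with log2 fold changes of -1.66, -2.57 and -2.34, all called. FADS2 was called with ENZ (-2.19) and APA (-1.96) and with BIC only with the block (-1.59, adjusted p 0.0051 against 0.068). FADS1 was called with ENZ (-1.40) and APA (-1.31), but not once ENZ.DHT replicate 1 and APA.DHT replicate 1 were left out. Both genes lost their calls without DHT replicate 1, DHT replicate 2 or the replicate 1 library of the antagonist group.

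ACSL3 had log2 fold changes of -1.71 with BIC, -2.21 with ENZ and -2.10 with APA, all called, with levels of 72.32 and 74.86 TPM, 40.93 and 64.52 TPM, and 48.67 and 63.86 TPM. ACSL1 was at -0.78, -1.004 and -0.83 on the same scale, and LPIN1 at -1.003, -1.33 and -1.20, all called, though with BIC the call of ACSL1 was lost without DHT replicate 1 or either BIC.DHT library. In oxidation ECI2 was at -0.96, -1.02 and -1.09 and ACADM at -0.73, -0.83 and -0.75, all called. HADHB was higher by 0.47 with BIC, 0.59 with ENZ and 0.60 with APA, called for the last 2 and, with the block, for BIC (adjusted p 0.0094, against 0.074). DECR1 was higher by 0.29, 0.41 and 0.51, also called for the last 2 and, with the block, for BIC (adjusted p 0.023, against 0.13). Over fits without 1 library, the log2 difference of HADHB ran from 0.55 to 0.63 with ENZ and from 0.55 to 0.64 with APA. That of DECR1 ran from 0.40 to 0.43 with ENZ and from 0.49 to 0.52 with APA. The calls of both genes were lost in some of these fits, in which 1 group held a lone library. With ENZ or APA the call of ACADM was lost without DHT replicate 1 or the replicate 1 library of the antagonist group, and with BIC those of ACADM and LPIN1 were lost without any 1 of the 4 libraries. CPT1A was at 31.82 and 47.01 TPM in ENZ.DHT, with a log2 difference of -0.58 (limma adjusted p 0.096, SE 0.20) that was called with the block (adjusted p 0.046).

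Leaving out single libraries moved these counts too, as it moved those over all genes. The latter fell for BIC in every such fit. For ENZ and APA they rose only without replicate 2 of the antagonist group and fell otherwise. With BIC the count of 10 was 5 without DHT replicate 1, 6 without DHT replicate 2 and 5 without either BIC.DHT library, and FASN, ELOVL5, ELOVL7, ACSL3 and ECI2 were called in all 4 fits. With ENZ the count of 14 was 9 when DHT replicate 1 was left out, also 9 when ENZ.DHT replicate 1 was, and up to 17 otherwise. For APA it ran from 10 to 14. ACACA, FASN, SCD, ELOVL5, ELOVL7, ACSL1, ACSL3, LPIN1 and ECI2 were called in all 4 fits of ENZ and in all 4 of APA. ENZ.DHT replicate 1 and APA.DHT replicate 1 were also left out together, a choice made after the data were seen. That fit kept a lone library in each of these groups, so its counts of calls are not compared. When each fit held just its own 2 groups, 0, 1 and 0 members were called with BIC, ENZ and APA. Over all genes, 0 were called with BIC and with APA, and with ENZ 1 was called higher and 6 lower. Member counts at an unadjusted p are not given for these fits, because the share of all genes was not counted for them.

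**Figure D5:**
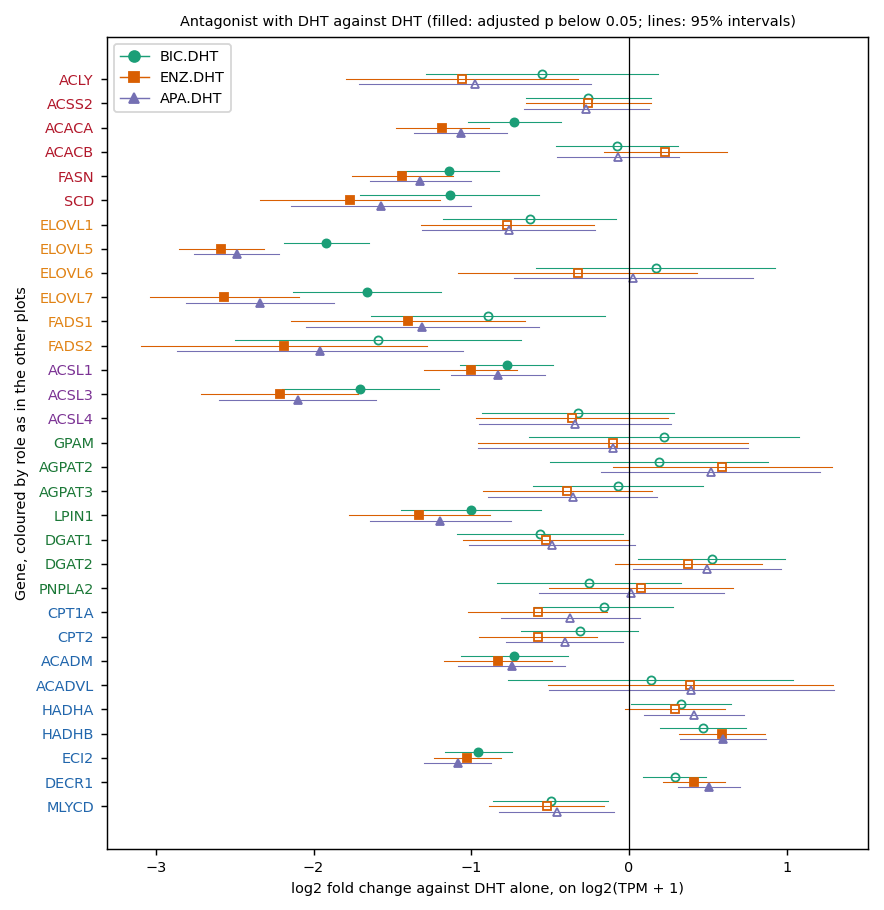
Log2 fold change of BIC.DHT (circles), ENZ.DHT (squares) and APA.DHT (triangles) against DHT alone on the log2(TPM + 1) scale, with 95% intervals as lines and filled points where the limma adjusted p was below 0.05. The points of FASN, SCD, ELOVL5, ELOVL7, ACSL3 and ECI2 lie left of 0 for all 3 antagonists, with BIC nearest to 0 for ELOVL5 (-1.92), and HADHB and DECR1 lie right of 0.

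Whether the effect of DHT itself differed with an antagonist present was tested as an interaction, and the 3 interactions share the VEH and DHT libraries. With BIC 5 members were called, with ENZ 9 and with APA 6, all of them negative, against 0.986%, 1.63% and 1.42% of all genes. With the block the counts were 12, 16 and 16, against 6.39%, 9.91% and 10.1% of all genes. For each interaction, every fit that left out 1 library called fewer of all genes than the full fit without the block. The counts of members in those fits follow. The count for BIC was 3 without any 1 of its libraries other than DHT replicate 1, that for ENZ was 5 without VEH replicate 2, DHT replicate 1 or ENZ.VEH replicate 1, and that for APA was 3 without APA.VEH replicate 2. For ELOVL5 the interaction was -2.34 (limma adjusted p 0.00025, SE 0.17) with BIC, -2.50 (limma adjusted p 0.00012, SE 0.17) with ENZ and -2.37 (limma adjusted p 0.00011, SE 0.17) with APA.

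DHT within an antagonist was compared with the same antagonist without DHT. With limma 0 of the 31 members were called within BIC, ENZ or APA, against 0%, 0.00601% and 0.00601% of all genes, and also 0 with the block. At an unadjusted p below 0.05 there were 0, 0 and 1 of the 31 members, against 234, 541 and 408 of the 16636 genes tested. The 1 member within APA was ACACB, at 9.08 and 8.24 TPM in APA.VEH and 4.71 and 6.39 TPM in APA.DHT. A share of 1 in 31 is near that of all genes. For ELOVL5 the log2 differences were 0.26 (95% interval -0.01 to 0.53) within BIC, 0.11 (-0.16 to 0.38) within ENZ and 0.24 (-0.03 to 0.51) within APA, against 2.61 (2.33 to 2.88) without antagonist. For FASN they were 0.06, -0.23 and 0.06, with intervals from -0.26 to 0.38, -0.56 to 0.09 and -0.26 to 0.38.

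Antagonists without DHT were compared with VEH. With limma 0 members were called for BIC, ENZ or APA, against 0%, 0% and 0.00601% of all genes, and also 0 with the block. At an unadjusted p below 0.05 there were 2, 0 and 0 of the 31 members, against 194, 139 and 151 of the 16636 genes tested. The 2 were ELOVL5, at 158 and 133 TPM in BIC.VEH against 115 and 101 TPM in VEH, and ELOVL7, at 16.23 and 17.09 TPM against 9.82 and 10.43 TPM. Their log2 differences were 0.42 (95% interval 0.15 to 0.69) and 0.67 (0.20 to 1.14), the groups did not overlap, and the limma adjusted p was 1 for both. KLK3 stood at 358 and 206 TPM in BIC.VEH, 20.38 to 72.87 TPM in the other groups without DHT, and 4102 and 2422 TPM with DHT.

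The antagonists, all at 10 µM with 10 nM DHT for 48 h, were compared in 3 pairs. No pair gave a called member with limma, with p adjusted over all genes within each pair, and the share of all genes called was 0.00601% for ENZ against BIC, 0% for APA against BIC and 0.00601% for APA against ENZ. At an unadjusted p below 0.05 there were 5, 4 and 0 of the 31 members, against 565, 483 and 102 of the 16636 genes tested. ELOVL5 was lower in ENZ.DHT than in BIC.DHT by a log2 difference of -0.67 (95% interval -0.94 to -0.39, limma adjusted p 0.89) and in APA.DHT by -0.57 (-0.84 to -0.30, limma adjusted p 0.95). With the block it was the 1 member called in each of these pairs (adjusted p 0.02 and 0.034), where 0.012% and 0.0541% of all genes were called. ELOVL7 differed by -0.90 (-1.37 to -0.43) and -0.68 (-1.15 to -0.21) and FASN by -0.30 (-0.62 to 0.03) and -0.18 (-0.50 to 0.14), none called.

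Enzalutamide and apalutamide share a thiohydantoin ring that bicalutamide lacks. Over the 31 members the log2 differences of APA.DHT against ENZ.DHT ran from -0.30 to 0.35. They ran from -0.90 to 0.40 for ENZ.DHT against BIC.DHT and from -0.68 to 0.33 for APA.DHT against BIC.DHT. ENZ.DHT and APA.DHT were also the groups whose replicates deviated together most (correlation 0.635), both with a replicate 1 that stood apart. The part of the ring or of these replicates in the ranges was not tested. For ELOVL5 the difference between APA and ENZ was 0.10 (95% interval -0.17 to 0.37), for FASN 0.11 (-0.21 to 0.43) and for ACSL3 0.11 (-0.38 to 0.61). These intervals do not show that the compounds act alike.

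Of 86 further genes of these pathways, 71 were tested and 11 were called with DHT against VEH, 5 higher and 6 lower, or 15.5% against the 10.3% of all genes. With the block 26 were called, 14 higher and 12 lower, against 27.4% of all genes. Among the synthesis genes MCAT, of the mitochondrial pathway, was at 23.14 and 23.03 TPM in VEH and at 32.45 and 33.89 TPM with DHT (limma adjusted p 0.013), while SCD5, a paralog of SCD, fell from 11.87 and 13.96 TPM to 2.63 and 3.14 TPM. In oxidation CPT1C, a relative of CPT1A, fell from 8.45 and 8.36 TPM to 2.42 and 2.51 TPM, CROT, of peroxisomal transport, rose from 19.07 and 16.37 TPM to 35.98 and 36.03 TPM, and ETFB, an electron carrier, fell from 415 and 304 TPM to 242 and 227 TPM. Among activating enzymes ACSM1 rose by 1.60 on the log2 scale (limma adjusted p 0.0015) and ACSF2 fell by 1.14 (limma adjusted p 0.0049).

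Of the regulators of lipid synthesis, INSIG1 was called higher and INSIG2 lower with DHT. SREBF1, the transcription factor known to drive FASN, ACACA and SCD, was at 514 and 386 TPM in VEH and at 521 and 459 TPM with DHT, overlapping, with a log2 difference of 0.13 (limma adjusted p 0.72, SE 0.20). SREBF2, its paralog for cholesterol genes, was at 78.72 and 76.53 TPM in VEH and at 124 and 135 TPM with DHT and was called with the block only (adjusted p 0.031, against 0.14). SCAP, which escorts both, was not called (0.25, limma adjusted p 0.3). INSIG1 and INSIG2, which hold SCAP back, had log2 fold changes of 1.47 (limma adjusted p 0.014, SE 0.32) and -1.24 (limma adjusted p 0.018, SE 0.28). INSIG1 was at 24.55 and 33.4 TPM in VEH and at 72.79 and 90.89 TPM with DHT, and INSIG2 at 45.51 and 65.65 TPM and 24.03 and 21.29 TPM. Against DHT alone, SREBF2 was lower by a log2 difference of -1.22 with ENZ (limma adjusted p 0.026) and -1.09 with APA (limma adjusted p 0.043), and INSIG1 by -1.80 and -1.57 (limma adjusted p 0.0061 and 0.012). SREBF2 was at 40.37 and 75.61 TPM in ENZ.DHT and 44.11 and 83.06 TPM in APA.DHT. INSIG1 was at 16.13 and 31.63 TPM and at 21.12 and 33.63 TPM. The lower values were those of the replicate 1 libraries that stood apart. In BIC.DHT, SREBF2 was at 69.97 and 84.63 TPM and INSIG1 at 31.77 and 41.49 TPM, also below the DHT pair. With BIC, 0 of the 12 tested regulators were called, and 5 with the block. Over the 71 tested pathway genes, BIC gave 2 calls higher and 2 lower (5.63% against 3.13% of all genes), ENZ gave 5 and 13 (25.4% against 9.65%), and APA gave 5 and 9 (19.7% against 8.36%). With the block these became 22, 34 and 32 calls, against 13.3%, 29.2% and 27.3% of all genes.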

How the data were processed

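Bulk RNA sequencing of 16 LNCaP libraries was analysed from the deposited values, which the authors gave as TPM per gene symbol. By the study's methods and the submitters' processing notes, stranded polyadenylated libraries (125 bp paired reads, about 40 M pairs stated in the labels) were checked with FastQC 0.11.9, trimmed with Trim Galore 0.6.5, aligned to GRCh38 with STAR 2.7.2b and quantified with RSEM 1.3.3. TPM keeps no depth, so precision rests on the 2 biological replicates per group and no counting interval is given. Because TPM is a share, higher abundant genes leave less for the others. RSEM divides shared reads by a model. In RefSeq GRCh38.p14, 24 of the 34 members overlap another annotated gene, and strand use in counting is not given in the sources used here. No column of other samples was present (0).

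The 16636 genes that reached 1 TPM in 2 or more libraries were fitted as log2(TPM + 1) with limma 3.58.1 in R 4.3.3, with trend, 8 group means and no block. Fold changes use that scale, where those of low genes are understated. P-values were adjusted by Benjamini-Hochberg within each of 16 contrasts and called below 0.05. The fit was tested on simulated data. Same-numbered replicates deviated together in all 28 pairs of groups (correlation 0.204 to 0.635, median 0.427), so the replicate number was also fitted as a block. Other alternatives were a pseudocount of 0.1, no filter, median-ratio scaling, removal of mitochondrial genes, only the groups compared and leaving out each library. Leaving out the 2 libraries that stood apart was added after seeing the data. Full statistics are given for members called with DHT, at most 4 per role by absolute change, and for FASN, ACACA, CPT1A and PLIN2. Other pathway genes are named when called with DHT, at most 3 per direction and role with 5 TPM or more on average in 1 of the groups, with SREBF1, SREBF2 and SCAP. The members, lists and tests were chosen with earlier results of these data known. Sequences and positions are from RefSeq.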

Additional observations from a re-analysis of the deposited data

Results flagged for a closer look

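The effect of DHT on a member differed between cells with and without an antagonist in 20 cases, each by an interaction term in limma (Benjamini-Hochberg over all genes), and all 20 were smaller responses with the antagonist. With BIC, the interaction (log2 scale) was -1.07 for FASN, -2.34 for ELOVL5, -2.33 for ELOVL7, -1.77 for ACSL3 and -1.03 for ECI2, with adjusted p from 0.00025 to 0.038. With ENZ, it was -1.16 for ACACA, -1.37 for FASN, -1.72 for SCD, -2.50 for ELOVL5, -2.68 for ELOVL7, -0.92 for ACSL1, -2.12 for ACSL3, -1.43 for LPIN1 and -1.03 for ECI2, with adjusted p from 0.00012 to 0.042. With APA, it was -0.90 for ACACA, -1.07 for FASN, -2.37 for ELOVL5, -2.30 for ELOVL7, -2.05 for ACSL3 and -1.14 for ECI2, with adjusted p from 0.00011 to 0.046. The 3 sets share the VEH and DHT libraries. Groups of 2 libraries were too small for a test of single outlying samples.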

How the results depend on the processing

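With the replicate block, 22, 18, 23 and 22 members were called for DHT against VEH and for BIC, ENZ and APA with DHT against DHT, in place of 14, 10, 14 and 14. The shares of all genes were then 27.4%, 13.3%, 29.2% and 27.3%, in place of 10.3%, 3.13%, 9.65% and 8.36%. The block gave 12, 16 and 16 interactions with BIC, ENZ and APA in place of 5, 9 and 6, against 6.39%, 9.91% and 10.1% of all genes. It also gave 1 member in each of ENZ.DHT and APA.DHT against BIC.DHT in place of 0. It ended no member's call. With only the groups compared, the counts were 5, 0, 1 and 0, and 2 and 1 for the interactions with ENZ and APA. Over all genes, DHT then gave 91 calls higher and 82 lower, BIC and APA gave 0, and ENZ gave 1 higher and 6 lower. The interactions with ENZ and APA gave 12 and 11 higher and 31 and 25 lower. Without the filter the interaction with BIC had 3 calls. Leaving out 1 library gave 8 to 12 calls for DHT, 5 to 6 for BIC, 9 to 17 for ENZ and 10 to 14 for APA, and 3 to 4, 5 to 10 and 3 to 5 for the interactions with BIC, ENZ and APA. The pseudocount turned no direction. Directions turned only for members that were not called. For DHT against VEH, median-ratio scaling gave 0.091 for ELOVL6, 0.07 for GPAM, 0.011 for PNPLA2 and 0.07 for CPT1A, and removal of mitochondrial genes gave 0.014 for ELOVL6. Without ENZ.DHT replicate 1 and APA.DHT replicate 1, ENZ against DHT alone gave 0.001 for ELOVL6, 0.37 for GPAM, -0.20 for PNPLA2 and -0.044 for ACADVL, and APA gave 0.12 for ACACB, 0.39 for GPAM, -0.12 for PNPLA2 and -0.029 for ACADVL. Over fits without 1 library, DHT against VEH ran from -0.30 to 0.26 for ELOVL6, -0.18 to 0.26 for ACSL4, -0.34 to 0.26 for GPAM, -0.40 to 0.019 for AGPAT3, -0.45 to 0.23 for PNPLA2 and -0.13 to 0.035 for CPT1A. BIC ran from -0.066 to 0.40 for ELOVL6, -0.076 to 0.52 for GPAM, -0.21 to 0.063 for AGPAT3 and -0.19 to 0.46 for ACADVL. ENZ ran from -0.65 to 0.001 for ELOVL6, -0.58 to 0.37 for GPAM, -0.20 to 0.35 for PNPLA2 and -0.044 to 0.82 for ACADVL. APA ran from -0.26 to 0.12 for ACACB, -0.38 to 0.43 for ELOVL6, -0.59 to 0.39 for GPAM, -0.12 to 0.15 for PNPLA2 and -0.029 to 0.82 for ACADVL. The causes were not tested. With 2 libraries a group, small differences were not detectable, and a lone remaining library was assumed to vary like the other groups.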
